A study of Homo sapiens with 6 samples.

Results

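The miR-130, miR-301 and miR-454 family is a set of microRNAs (miRNAs) that share 1 seed, the stretch of bases 2 to 8 with which a miRNA recognises its target mRNAs. Its 4 members described here, hsa-miR-130a-3p, hsa-miR-130b-3p, hsa-miR-301a-3p and hsa-miR-454-3p, were taken by name from 832 miRNAs in the table, and all 4 were among the 517 that passed the filter on low counts. The libraries held small RNA of extracellular vesicles (EVs) shed by MDA-MB-231, a triple-negative breast cancer cell line with a mesenchymal-like phenotype. Wild-type (WT) cells gave 3 libraries (231 EV) and cells of the same line labelled ACO1 knockdown gave 3 more (231/ACO1 KD EV). In both groups, EVs were pelleted by ultracentrifugation from pre-cleared EV-free medium of nearly confluent cultures. ACO1 is the cytosolic aconitase, which binds RNA as iron regulatory protein 1 when iron is low, and the comparison asks which miRNAs of the EV cargo differ when it is depleted. The sources used here do not give the reagent or the number of clones behind the knockdown. Small RNA libraries do not measure ACO1 mRNA, so the knockdown was not checked in these libraries. By RT-qPCR the study reports reduced ACO1 RNA after knockdown in MDA-MB-231/miR-33a cells, which overexpress miR-33a. The labels here do not name that overexpression. Nor do the labels say that the libraries came from separate cultures, and p-values therefore measure only the spread between these libraries.

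A miRNA guides an Argonaute protein to mRNAs whose 3′ untranslated regions pair with its seed, and the mRNA is then repressed or degraded. miRNAs with the same seed are predicted to share most of their targets. miR-130a is best known from endothelial cells and blood progenitors, where it acts on homeobox genes, miR-301a from NF-κB signalling in tumours, and miR-130b and miR-454 from studies of proliferation and TGF-β signalling in several cancers.

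The sequences are shown because the shared seed, in capitals, is what makes these miRNAs a family. They were taken from RefSeq on GRCh38.p14, which matched 3 of the 4 members, and are written 5′ to 3′. The entries are the members hsa-miR-130b-3p, hsa-miR-301a-3p and hsa-miR-454-3p, followed by 3 other human miRNAs with the same seed.
hsa-miR-130b-3p: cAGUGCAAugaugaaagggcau
hsa-miR-301a-3p: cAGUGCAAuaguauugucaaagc
hsa-miR-454-3p: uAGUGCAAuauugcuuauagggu
hsa-miR-301b-3p: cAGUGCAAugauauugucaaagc
hsa-miR-3666: cAGUGCAAguguagaugccga
hsa-miR-4295: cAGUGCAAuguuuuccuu

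The seed AGUGCAA was carried by 6 of 2370 mature human miRNA names in that table, or 0.253%. Outside the seed the 3 members with a sequence diverged. hsa-miR-130b-3p and hsa-miR-301a-3p were identical over their first 9 bases, whereas hsa-miR-454-3p differed from both at its first base. hsa-miR-301a-3p and hsa-miR-301b-3p differed at 2 of 23 positions, so reads of this pair could have been divided between them by the matching step and their counts are uncertain to that extent. The letters CAUUG, which the study's docking model placed at the contact of ACO1 with miR-33a-5p, were searched on the mature strand only. The study's pulldown used the longer CAUUGC. miR-33a-5p mutated in those letters did not pull down ACO1, whereas a mutant outside them did. miR-33a-5p holds CAUUG from positions 4 and 15, and only the copy at 15 continues as CAUUGC. The mutant that still pulled down ACO1 had lost the copy at position 4. CAUUG was present in 0 of the 3 members with a sequence and in 41 of the 2370 mature names (1.73%). Among the family hairpins it occurred in the opposite arm of miR-130a, from position 11 of hsa-miR-130a-5p. The next letter there is U, so the match is not CAUUGC. The arm is shown here with the match in capitals.
hsa-miR-130a-5p: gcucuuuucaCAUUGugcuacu

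The family genes lie at 3 places in the genome (GRCh38, GENCODE release 29 for hairpins and hosts). MIR301A (chr17:59151136-59151221, minus strand) and MIR454 (chr17:59137758-59137872, minus strand) both lay in intron 1 of the principal transcript of SKA2, a gene for a spindle and kinetochore protein, with 13263 bases between them. MIR130B (chr22:21653304-21653385, plus strand) overlapped an exon of the non-coding transcript gene AP000553.1. MIR301B (chr22:21652981-21653058, plus strand) lay 245 bases before it in the same gene, outside its exons. MIR130A (chr11:57641198-57641286, plus strand) lay within AP000662.1, a sense-overlapping non-coding gene, and touched none of its exons. The mature RNAs came from chr22:21653354-21653375 for hsa-miR-130b-3p, chr17:59151149-59151171 for hsa-miR-301a-3p and chr17:59137787-59137809 for hsa-miR-454-3p (RefSeq positions).

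The 231 EV libraries held 224948 to 230562 counts and those of 231/ACO1 KD EV 67873 to 175924. TPM here is a count scaled to the total of its library, with no term for length, so a single count stood for 4.34 to 4.45 TPM in the deeper group and for 5.68 to 14.7 TPM in the other, whose replicate 2 was the shallowest library. The 6 miRNAs listed as markers of MDA-MB-231 and similar lines were all present, with a summed level of 407965 to 428887 TPM in 231 EV compared with 248950 to 313001 TPM in 231/ACO1 KD EV. miR-21-5p, the most abundant of them, took 28.5 to 31.2% of the counts in 231 EV against 11.7 to 18.4% in 231/ACO1 KD EV. Shares of a fixed total are tied to one another, so a lower share of so abundant a miRNA goes with higher shares elsewhere. These data cannot tell whether its amount fell or that of the others rose. The main comparison used trimmed mean of M-values (TMM) scaling, which assumes that most miRNAs do not change. Under it the median log2 fold change of all 517 miRNAs was -0.03, against 0.32 with library totals. Which scaling is nearer to the amounts in the EVs was not tested.

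hsa-miR-130a-3p, the most abundant member, was counted 384, 304 and 265 times in replicates 1 to 3 of 231 EV and 428, 137 and 266 times in those of 231/ACO1 KD EV. In TPM these counts were 1707, 1319 and 1178 in 231 EV compared with 2433, 2018 and 1691 in 231/ACO1 KD EV. The groups overlapped narrowly, since replicate 1 of 231 EV lay above replicate 3 of 231/ACO1 KD EV. The mean level was 1401 ± 274 TPM in 231 EV against 2047 ± 372 TPM in 231/ACO1 KD EV (SD, n = 3 each), with an exact two-sided permutation p of 0.2 on log2(TPM + 1), where 0.1 is the smallest value that 3 against 3 libraries allow.

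hsa-miR-454-3p, whose hairpin shares the SKA2 intron with that of miR-301a, was second in level in all 6 libraries. Its counts were 219, 223 and 206 in 231 EV compared with 277, 81 and 142 in 231/ACO1 KD EV. These corresponded to 974, 967 and 916 TPM and to 1575, 1193 and 903 TPM. The 231 EV libraries lay close together at 952 ± 31.8 TPM, while the 231/ACO1 KD EV libraries spread at 1224 ± 337 TPM (SD, n = 3 each) and reached from below the 231 EV range to well above it. The exact permutation p was 0.4.

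hsa-miR-130b-3p, the product of the chromosome 22 pair of hairpins with the higher count, was counted 157, 147 and 101 times in 231 EV against 138, 42 and 88 times in 231/ACO1 KD EV. Its TPM values of 698, 638 and 449 in 231 EV overlapped with those of 784, 619 and 559 in 231/ACO1 KD EV. The lowest library was replicate 3 of 231 EV and the highest replicate 1 of 231/ACO1 KD EV. Group means were 595 ± 130 and 654 ± 117 TPM (SD, n = 3 each, exact permutation p = 0.7).

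hsa-miR-301a-3p was the least abundant member, with counts of 77, 96 and 103 in 231 EV compared with 85, 20 and 64 in 231/ACO1 KD EV. In TPM, 342, 416 and 458 in 231 EV stood beside 483, 295 and 407 in 231/ACO1 KD EV, and the range of the former lay wholly inside that of the latter. Means were 405 ± 58.5 and 395 ± 94.8 TPM (SD, n = 3 each, exact permutation p = 0.8). The lowest of these values rests on 20 counts in the shallowest library.

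**Figure D1:**
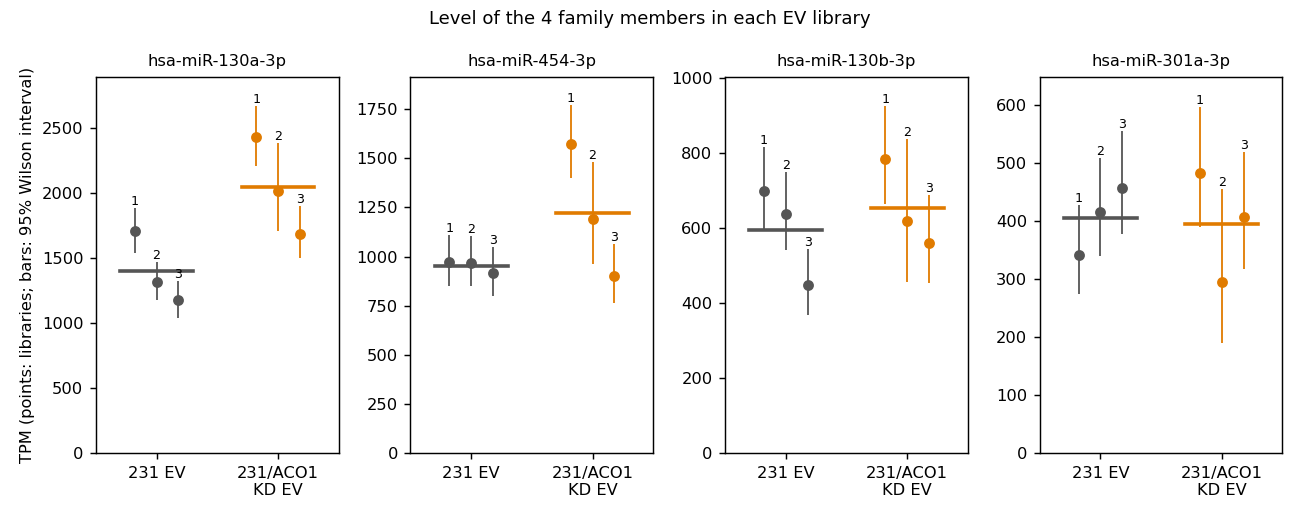
Level of each of the 4 members (TPM, linear axes from 0, a separate scale for each panel) in the 3 libraries of 231 EV and the 3 of 231/ACO1 KD EV. Points are libraries with their replicate number, vertical bars 95% Wilson intervals of the count and horizontal lines group means. In every panel the groups overlap, most narrowly for hsa-miR-130a-3p.

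The order of the levels was hsa-miR-130a-3p, hsa-miR-454-3p, hsa-miR-130b-3p and hsa-miR-301a-3p in 5 of 6 libraries. Replicate 3 of 231 EV was the exception, where hsa-miR-301a-3p (103 counts) and hsa-miR-130b-3p (101 counts) were nearly equal. Within each group the TPM ranges of neighbours in this order did not overlap, apart from hsa-miR-130b-3p and hsa-miR-301a-3p in 231 EV. Cloning recovers different small RNAs with different efficiency, so this is an order of reads and not of molecules. Among all miRNAs of a library, hsa-miR-130a-3p ranked 57, 63 and 70 in 231 EV against 53, 59 and 61 in 231/ACO1 KD EV. hsa-miR-301a-3p ranked 102 to 115 in 231 EV compared with 101 to 129 in 231/ACO1 KD EV.

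Replicate spread differed between the members. The coefficient of variation of the TPM values in 231 EV was 19.6% for hsa-miR-130a-3p, 21.8% for hsa-miR-130b-3p, 14.4% for hsa-miR-301a-3p and 3.34% for hsa-miR-454-3p, against a median of 10.3% over the 183 miRNAs with a mean count of at least 20. Counting error alone would give 5.61%, 8.61%, 10.4% and 6.80% in the same order, so hsa-miR-454-3p varied by less than its counting error in this group. In 231/ACO1 KD EV the coefficients were 18.2%, 17.8%, 24.0% and 27.5%, and the median over the same miRNAs was 18.9%. hsa-miR-454-3p thus had the narrowest spread of the family in 231 EV and the widest in 231/ACO1 KD EV; the difference between these spreads was not tested.

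Summed over the 4 members, the family took 837, 770 and 675 counts in 231 EV against 928, 280 and 560 in 231/ACO1 KD EV. As a share of the library this was 0.372% (95% Wilson interval 0.348 to 0.398), 0.334% (0.311 to 0.358) and 0.300% (0.278 to 0.323) in 231 EV. The corresponding shares in 231/ACO1 KD EV were 0.528% (0.495 to 0.562), 0.413% (0.367 to 0.464) and 0.356% (0.328 to 0.387). Replicate 3 of 231/ACO1 KD EV lay below replicate 1 of 231 EV, so the groups overlapped. These intervals cover counting error only, as the reads carried no molecular identifiers. With TMM scaling the summed level, now in scaled counts (CPM), was 3788 ± 255 CPM in 231 EV compared with 3824 ± 818 CPM in 231/ACO1 KD EV (SD, n = 3 each). The log2 ratio of these means was 0.01, whereas with library totals it was 0.37. Whether more vesicles carried a miRNA or each vesicle carried more of it cannot be told apart in these bulk libraries.

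The make-up of the family does not depend on how libraries are scaled. hsa-miR-130a-3p formed 45.9, 39.5 and 39.3% of the family counts in 231 EV against 46.1, 48.9 and 47.5% in 231/ACO1 KD EV (41.5 ± 3.76% and 47.5 ± 1.40%, SD, n = 3 each). The groups were separated by only the gap between 45.9 and 46.1%, which is smaller than the counting error of either value. No background share over other miRNAs was computed for this measure, and the members' shares are tied because they make up a fixed total. hsa-miR-454-3p formed 26.2 to 30.5% in 231 EV compared with 25.4 to 29.8% in 231/ACO1 KD EV. The shares of hsa-miR-130b-3p were 15.0 to 19.1% and 14.9 to 15.7%, and those of hsa-miR-301a-3p 9.20 to 15.3% and 7.14 to 11.4%, so the other members overlapped between groups.

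**Figure D2:**
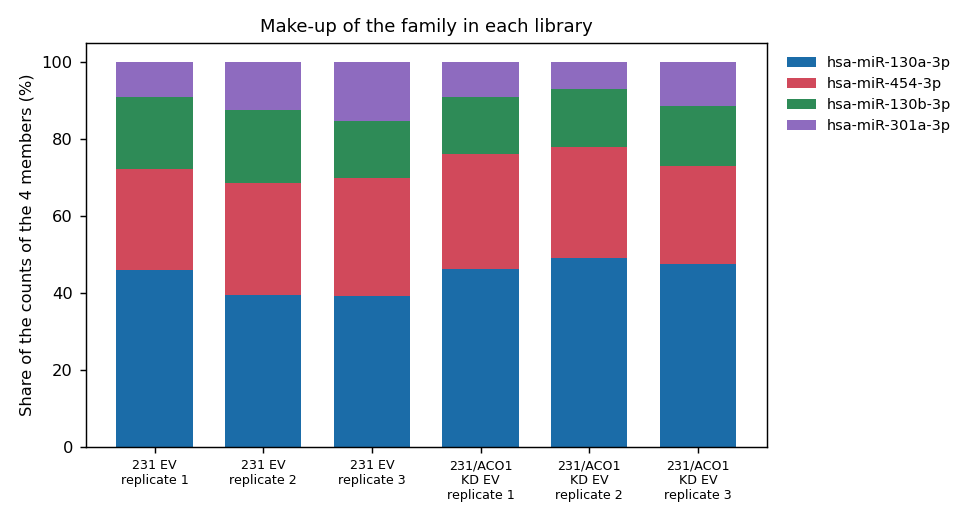
Share of each member in the summed counts of the 4 members (%, stacked bars from 0) for each of the 6 libraries. hsa-miR-130a-3p forms the largest share in every library, from 39.3% in replicate 3 of 231 EV to 48.9% in replicate 2 of 231/ACO1 KD EV.

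Of the 6 ratios between members, 1 had ranges that did not overlap between groups, that of hsa-miR-130a-3p to hsa-miR-130b-3p. It was 2.45, 2.07 and 2.62 in 231 EV against 3.10, 3.26 and 3.02 in 231/ACO1 KD EV, so each value was higher in the latter group. Whether reads were divided between these members by the matching step was not tested. On the log2 scale, with 0.5 counts added, the ratio was 1.24 ± 0.18 in 231 EV compared with 1.64 ± 0.05 in 231/ACO1 KD EV (SD, n = 3 each). A share of 1 in 6 (16.7%) is below the background, as 21.2% of all pairs of tested miRNAs, and 39.3% of the pairs with a mean count of at least 20 in both, did not overlap either. The count of such pairs was 3 without replicate 1 of 231 EV or without replicate 3 of 231/ACO1 KD EV, and 2 without replicate 3 of 231 EV. Leaving out a library can only keep or raise this count. The background shares were computed with all 6 libraries, so these higher counts have no share to be set against. For the intronic pair, the ratio of hsa-miR-454-3p to hsa-miR-301a-3p was 2.84, 2.32 and 2.0 in 231 EV against 3.26, 4.05 and 2.22 in 231/ACO1 KD EV, with overlap.

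None of the 4 members passed the test of the change between EV groups, edgeR's quasi-likelihood test with TMM scaling and Benjamini-Hochberg adjustment over all 517 miRNAs, in which 8.51% of all miRNAs were called at an adjusted p under 0.05. With so low a background, 0 of 4 says little about the family. At an unadjusted p under 0.05 there were 0 members and 97 miRNAs in all. The median log2 fold change was -0.09 over the members and -0.03 over all 517. Nor did any member have groups that were free of overlap, in TPM (28.4% of all miRNAs) or in TMM-scaled CPM (24.4%).

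hsa-miR-130a-3p had a log2 fold change, 231/ACO1 KD EV over 231 EV, of 0.20 (SE 0.18, 95% interval -0.16 to 0.56, adjusted p = 0.654). In TMM-scaled CPM its libraries were at 1867, 1470 and 1403 in 231 EV and at 2196, 1686 and 1550 in 231/ACO1 KD EV. For hsa-miR-454-3p the log2 fold change was 0.01 (SE 0.20, interval -0.39 to 0.41, adjusted p = 0.984), with CPM values of 1065, 1078 and 1090 against 1422, 997 and 827. That near-zero value averages 1 library well above the 231 EV range with 2 below it, and without replicate 1 of 231/ACO1 KD EV it was -0.23. hsa-miR-130b-3p had a log2 fold change of -0.20 (SE 0.24, interval -0.66 to 0.26, adjusted p = 0.744) and hsa-miR-301a-3p one of -0.36 (SE 0.26, interval -0.86 to 0.15, adjusted p = 0.531). All 4 intervals lay inside a 2-fold change in either direction. Their width rests on a spread between libraries pooled over all miRNAs, not on the spread of each member's own libraries. Without 1 library at a time, however, the intervals reached from -1.08 to 0.79, so the bound rests on all 6 libraries and on that pooling.

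The scaling decided the call of hsa-miR-130a-3p. With library totals its log2 fold change was 0.55 (SE 0.18, interval 0.19 to 0.91, adjusted p = 0.0244 by edgeR's quasi-likelihood test), and 1 of 4 members was called where 13.7% of all miRNAs were, 11.2% as higher. limma on log2(TPM + 1), which keeps the same scaling, likewise called 1 of 4, beside 14.5% of all miRNAs. In edgeR's quasi-likelihood test with library totals, the other members had 0.36 (hsa-miR-454-3p, adjusted p = 0.259), 0.14 (hsa-miR-130b-3p, adjusted p = 0.749) and -0.0068 (hsa-miR-301a-3p, adjusted p = 0.995). A change of scaling shifts the fold changes of all miRNAs, and so their median, by nearly the same amount. A member's distance from that median is therefore nearly fixed by arithmetic, and its match between fits says nothing about the member. Set against the median of all miRNAs under the same scaling, each member stood at nearly the same distance in both edgeR fits. That distance was 0.23 and 0.23 for hsa-miR-130a-3p, 0.04 and 0.05 for hsa-miR-454-3p, -0.17 and -0.17 for hsa-miR-130b-3p and -0.32 and -0.32 for hsa-miR-301a-3p, with TMM and with library totals respectively.

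**Figure D3:**
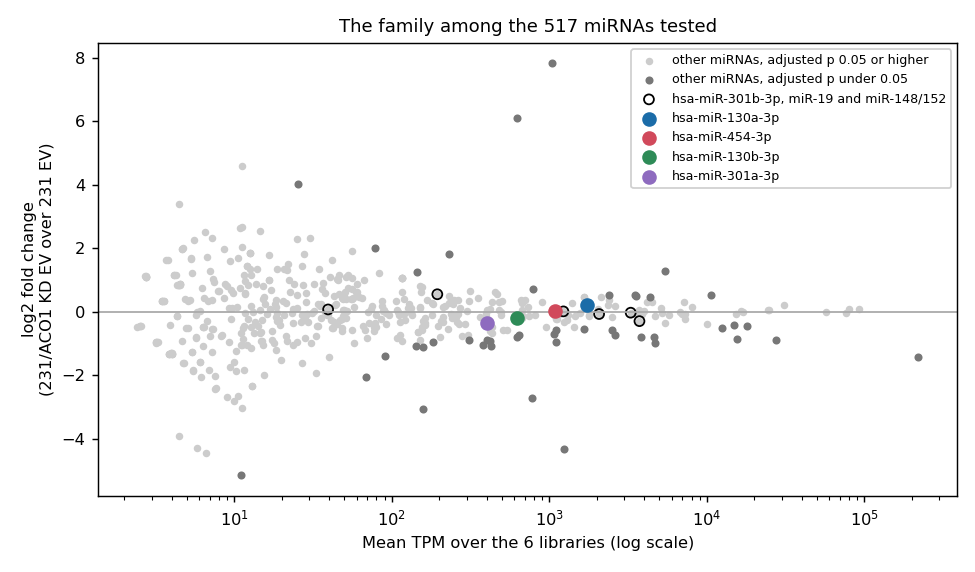
log2 fold change (231/ACO1 KD EV over 231 EV, edgeR with TMM) against mean TPM over the 6 libraries (log axis) for the 517 miRNAs tested. Dark grey points have an adjusted p under 0.05, coloured points are the 4 members and open circles the related miRNAs. The members lie between -0.36 and 0.20, among the miRNAs that were not called.

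Markers of leukocytes, platelets and endothelium also moved with the groups, and are given here because miR-130a is known from endothelial cells and blood progenitors. Of the 6 listed, 4 were called higher in 231/ACO1 KD EV (2.51% of all miRNAs were) and none lower (6%). None was at 0 in all libraries. Their summed level was 18297 to 20965 TPM in 231 EV against 30555 to 35623 TPM in 231/ACO1 KD EV. The calls in this paragraph use TMM scaling, whereas the sums are in TPM, which scales to library totals. The median log2 fold change of these 6 markers was 0.49 with TMM scaling and 0.85 with library totals. Their part in the level of hsa-miR-130a-3p was not tested. Red cell markers (4 tested, 2 lower, 2503 to 2676 TPM against 1597 to 2123 TPM) and epithelial markers (6 tested, 1 lower, 858 to 985 TPM against 619 to 992 TPM) had no member called higher. Of the 6 markers of MDA-MB-231 and similar lines, 5 were called lower in 231/ACO1 KD EV with TMM scaling and none higher. The liver marker miR-122-5p was at 1094 to 1324 TPM in 231 EV compared with 985 to 1887 TPM in 231/ACO1 KD EV, and was not called.

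Of the other miRNAs with the family seed, hsa-miR-301b-3p was listed, while hsa-miR-3666 and hsa-miR-4295 had no row in the table. hsa-miR-301b-3p was counted 8, 14 and 2 times in 231 EV against 9, 2 and 8 times in 231/ACO1 KD EV. Its hairpin neighbour hsa-miR-130b-3p had between 10.5 and 50.5 times as many counts in each library. The log2 fold change of 0.07 had a wide interval (SE 0.62, -1.15 to 1.29, adjusted p = 0.973 by edgeR's quasi-likelihood test), and a change inside that interval was not detectable at this depth.

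The opposite (5p) arms, which carry other seeds and are usually degraded, were rare in these EVs. Of 5 arms, 4 passed the filter and none of them was called, where 8.51% of all miRNAs were. hsa-miR-130b-5p had the largest share of its hairpin when libraries of a group were pooled, although another arm had a larger share in 3 of 6 libraries. It had 4, 9 and 12 counts in 231 EV compared with 9, 4 and 18 in 231/ACO1 KD EV. This was 2.48, 5.77 and 10.6% of the hairpin counts in 231 EV against 6.12, 8.70 and 17.0% in 231/ACO1 KD EV, with overlap between the groups. Pooled over libraries it was 5.81% (exact 95% binomial interval 3.80 to 8.46) and 10.4% (7.15 to 14.4). These intervals cover counting error only, and the shares of single libraries ranged more widely in both groups. The log2 fold change of the arm was 0.71 (SE 0.53, adjusted p = 0.570 by edgeR's quasi-likelihood test). hsa-miR-130a-5p, the arm that holds CAUUG, had 2, 1 and 3 counts in 231 EV compared with 0, 1 and 0 in 231/ACO1 KD EV. That is 0.626% and 0.120% of the hairpin counts, too few for a comparison. hsa-miR-301a-5p had 1 to 5 counts in a library and hsa-miR-454-5p 1 to 11, while hsa-miR-301b-5p had 1 count in all and was not tested.

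The seeds of 5 further miRNAs share 6 bases with the family seed, shifted by 1 position. In the sequences, which are shown to place that overlap, the shared bases are in capitals.
hsa-miR-19a-3p: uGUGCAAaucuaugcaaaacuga
hsa-miR-19b-3p: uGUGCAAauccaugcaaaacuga
hsa-miR-148a-3p: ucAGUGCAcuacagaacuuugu
hsa-miR-148b-3p: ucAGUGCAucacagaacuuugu
hsa-miR-152-3p: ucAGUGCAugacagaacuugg

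All 5 were tested and none was called with TMM scaling, where 8.51% of all miRNAs were called, so this says little about them. hsa-miR-19b-3p, an oncogenic miRNA, has genes on chromosome 13, in the miR-17-92 cluster, and on chromosome X. Both give the same mature sequence, so its counts cannot be assigned to either gene. It was counted 698, 726 and 571 times in 231 EV against 766, 236 and 489 times in 231/ACO1 KD EV (log2 fold change -0.03, adjusted p = 0.939 by edgeR's quasi-likelihood test). It had 1.72 to 2.39 times the counts of hsa-miR-130a-3p in each library. Its near-identical relative hsa-miR-19a-3p had 267, 279 and 193 counts against 350, 77 and 157 (0.01, adjusted p = 0.990), and reads of the pair may have been divided between them. The miR-148 and miR-152 group is known for targeting the DNA methyltransferase DNMT1. Within it, hsa-miR-148a-3p had 873, 824 and 797 counts against 665, 261 and 598 (log2 fold change -0.30, adjusted p = 0.284), and hsa-miR-148b-3p 469, 445 and 364 against 433, 147 and 342 (-0.07, adjusted p = 0.892). hsa-miR-152-3p was counted 31, 37 and 21 times in 231 EV compared with 39, 26 and 27 times in 231/ACO1 KD EV. Its log2 fold change was 0.55 with TMM scaling (SE 0.31, adjusted p = 0.333) and 0.90 with library totals, where it passed the test (adjusted p = 0.0312), as did 13.7% of all miRNAs.

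The miRNAs whose levels followed each member most closely over the 6 libraries were found by Pearson's r of TMM-scaled log2 CPM among 179 miRNAs outside the family with a mean count of at least 20. The points share library depth and scaling, and the values are a description. For hsa-miR-130a-3p the closest were miR-503-5p (r = 0.857) and miR-25-3p (0.839), and for hsa-miR-454-3p miR-186-5p (0.975) and miR-122-5p (0.913). hsa-miR-130b-3p was followed by miR-148b-3p (0.928) and miR-335-5p (0.926), and hsa-miR-301a-3p by miR-374b-5p (0.902) and miR-192-5p (0.893). Between members, r ranged from -0.247 (hsa-miR-130a-3p and hsa-miR-301a-3p) to 0.629 (hsa-miR-130a-3p and hsa-miR-454-3p), and it was 0.354 for the intronic pair hsa-miR-301a-3p and hsa-miR-454-3p.

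**Figure D4:**
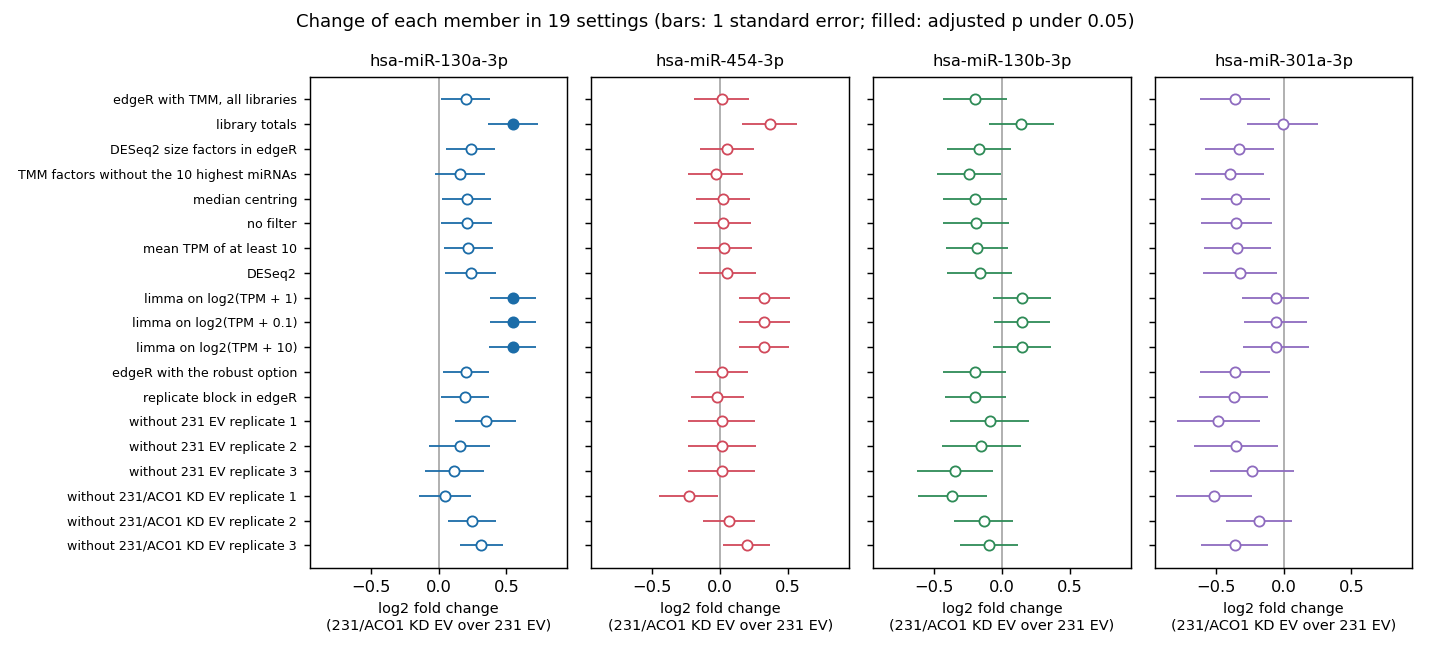
log2 fold change of each member (231/ACO1 KD EV over 231 EV) in the main analysis and 18 alternatives, with bars of 1 standard error and filled points where the adjusted p was under 0.05. The filled points are those of hsa-miR-130a-3p with library totals and with limma on TPM values, which are scaled in the same way, and all of them lie near 0.55.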

How the data were processed

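Small RNA libraries of EVs (NEBNext kit, 50-base single-end reads) were sequenced for 231 EV and 231/ACO1 KD EV, 3 libraries each, grouped by the genotype in the labels. Per the study's methods, the authors trimmed reads, kept sizes of 18 to 32 bases, removed Rfam matches, counted sequences found in miRBase 21.0 and used Mireap or miRDeep2 to predict others. The submitters' processing notes name hg38, Bowtie2 and StringTie. The deposited table gives whole read counts per miRNA and TPM values that the authors derived from them, which equal the counts scaled to the library total. No per-sample column was left unused. How reads matching several miRNAs were assigned is not given in the sources used here.

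Counts were tested with edgeR 4.0.16 in R 4.3.3 (TMM scaling, quasi-likelihood test, no covariate) over 517 of 832 miRNAs, those seen in 3 or more libraries, with Benjamini-Hochberg adjustment and calls at 0.05. The common dispersion was 0.0433, a biological coefficient of variation of 20.8%. Standard errors were derived from the fold change and its F statistic. Alternatives were DESeq2 1.42.0 (the study's own tool), limma 3.58.1 on log2 TPM with pseudocounts of 0.1, 1 and 10, other scalings and filters, a replicate block and each library left out. The scripts were tested on simulated data. Totals of 67873 to 230562 counts set the precision. Wilson and exact binomial intervals cover counting error only, whereas the intervals of fold changes come from the edgeR fit. The latter include a spread between libraries that was pooled over all miRNAs, with infinite prior degrees of freedom. Libraries of 1 group differed beyond counting error in every pair (chi-square over degrees of freedom of 3.64 to 22.6), so each was used as 1 replicate.

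Named miRNAs were the 4 members, others of their seed, the opposite arms, those sharing 6 seed bases, for each member the 2 most correlated, and the marker lists, of which miR-21-5p and miR-122-5p are named. The members and lists were chosen with earlier results of these data known. Predicted miRNAs entered the totals and tests but are not named.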

Additional observations from a re-analysis of the deposited data

How the results depend on the processing

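No member was called in any of the 18 alternatives apart from hsa-miR-130a-3p, which passed the threshold with library totals (0.55) and with limma at pseudocounts of 1, 0.1 and 10 (0.55, 0.55 and 0.55, adjusted p = 0.0150, 0.0424 and 0.0161), all of which scale to the library total. Its adjusted p over all alternatives ran from 0.0150 to 0.955. hsa-miR-130b-3p turned positive under the same settings (0.14 with library totals, then 0.147, 0.148 and 0.145 with limma), and hsa-miR-301a-3p was below 0 in all 18. hsa-miR-454-3p turned negative with TMM factors computed without the 10 highest miRNAs (-0.032), with a replicate block (-0.021) and without replicate 1 of 231/ACO1 KD EV (-0.23). The log2 ratio of the family sum moved to 0.37 with library totals. Leaving out each library in turn gave 0.05 to 0.35 for hsa-miR-130a-3p, -0.36 to -0.09 for hsa-miR-130b-3p, -0.51 to -0.18 for hsa-miR-301a-3p, -0.23 to 0.19 for hsa-miR-454-3p, -0.18 to 0.12 for the family sum and 1 to 3 pairs free of overlap, a count that cannot fall when a library is left out. Over all miRNAs, 44 were called (31 lower, 13 higher), against 71 with library totals (13 lower, 58 higher). limma called 75 at a pseudocount of 1 (16 lower, 59 higher) and 76 at 10 (16 lower, 60 higher). With a library left out, 19 to 65 were called. Without replicates 1, 2 and 3 of 231 EV in turn there were 21, 29 and 19 calls. Without those of 231/ACO1 KD EV there were 31, 37 and 65. The correlation of deviations was 0.0538, 0.0706 and 0.00499 between libraries of the same replicate number. Between libraries of different numbers it was -0.094 to 0.036. All these values are small, and whether the numbers pair the libraries cannot be told from them. A replicate block left 44 calls, with 0.19 for hsa-miR-130a-3p, -0.20 for hsa-miR-130b-3p and -0.37 for hsa-miR-301a-3p. Depth limits the rarest values, since 3 counts equal 13.0 to 44.2 TPM.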
